A study of Mus musculus with 18 samples.

Results

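The genes described here are 42 genes of mitosis and chromosome segregation, listed by symbol: mitotic cyclins and kinases, the spindle checkpoint, the chromosomal passenger complex, centromere and kinetochore proteins, spindle motors, condensin, and the proteins of cytokinesis. A listed gene was measured where an array probe set carried its symbol alone, and of several such probe sets the brightest on average was taken. Of the 42 genes, 40 were measured, among 18820 genes on the array. Ccnb1 had no probe set with its symbol alone, and Kif20a shared its probe sets with Cdc23.

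All 18 arrays came from C2, a single clone of mouse embryonic fibroblasts transformed with c-Myc, in which 1 Ezh2 allele was already deleted and the other was flanked by loxP sites. A Cre recombinase fused to the estrogen receptor was expressed from the ROSA26 locus, so tamoxifen removed the remaining copy of Ezh2, the main methyltransferase of Polycomb repressive complex PRC2. In the time course, cells treated with ethanol (vehicle) were compared with tamoxifen-treated cells at days 5, 18 and 32. In the rescue experiment, the groups were a control, Ezh2 -/- cells (called Ezh2 null), and cells given Ezh1 or Ezh2 by retrovirus before the deletion (Ezh1 pre-rescue, Ezh2 pre-rescue) or Ezh2 after it (Ezh2 post-rescue). Each of the 9 groups held 2 arrays. Since all groups derive from 1 clone, the arrays carry no information on other clones or embryos.

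Cells entering mitosis are driven by cyclins bound to Cdk1, and a set of kinases (Plk1, the Aurora kinases, Bub1, Ttk) then builds the spindle and holds anaphase back until every kinetochore is attached. Most of these genes are transcribed in G2 and M phase, and their mRNAs are scarce in cells that have left the cycle, so that as a group they are widely read as a sign of dividing cells. Their promoters are known for a pair of elements, the cell cycle homology region (CHR) and the CCAAT box, through which the DREAM, B-MYB and NF-Y complexes act. In a culture measured in bulk, fewer dividing cells and less mRNA in each dividing cell cannot be told apart.

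Promoter windows from RefSeq (GRCm38.p6), from 250 bases before to 50 after the transcription start, were held for 33 of the 40 measured genes. A CHR, searched as TTTGAA or TTCGAA on either strand, was found in 26 of the 33 (78.8%) and in 19% of the 14749 measured genes with a window. A CCAAT box (CCAAT on either strand) was found in 24 of the 33 (72.7%), against 41.9% of all genes. Both motifs were present in 22 of the 33 (66.7%) and in 7.74% of all genes. The E2F site (TTCCCGC, TTTCCCGC, TTTGGCGC or TTTCGCGC on either strand, the first lying within the second) was in 2 of the 33 (6.06%) and in 8.56% of all genes. A match is a run of letters and not a measured binding site, and none of these shares was tested. The stretches shown next run from 150 bases before to 30 after the start, 5′ to 3′ on the strand of the gene, with CHR and CCAAT matches in capitals. They were chosen among genes with 1 RefSeq window. Kif4, Ttk and Kif23 are the 3 that moved most between day 5 and day 18 of those with both motifs inside the stretch, Smc2 moved least of those, and Birc5 moved most of the genes with neither motif.
Kif4 (chrX:100625915-100626094, plus strand): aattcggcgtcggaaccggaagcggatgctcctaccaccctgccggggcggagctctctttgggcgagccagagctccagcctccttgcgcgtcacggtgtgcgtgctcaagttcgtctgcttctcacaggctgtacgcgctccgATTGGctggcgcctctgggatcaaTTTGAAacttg
Ttk (chr9:83834539-83834718, plus strand): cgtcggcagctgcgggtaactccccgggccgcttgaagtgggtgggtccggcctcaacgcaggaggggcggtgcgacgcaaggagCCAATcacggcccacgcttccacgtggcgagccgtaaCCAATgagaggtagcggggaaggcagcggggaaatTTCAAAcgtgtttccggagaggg
Kif23 (chr9:61946770-61946949, minus strand): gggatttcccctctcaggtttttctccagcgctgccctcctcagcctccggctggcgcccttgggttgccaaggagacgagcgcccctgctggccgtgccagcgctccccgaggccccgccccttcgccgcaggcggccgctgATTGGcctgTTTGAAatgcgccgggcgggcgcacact
Smc2 (chr4:52439071-52439250, plus strand): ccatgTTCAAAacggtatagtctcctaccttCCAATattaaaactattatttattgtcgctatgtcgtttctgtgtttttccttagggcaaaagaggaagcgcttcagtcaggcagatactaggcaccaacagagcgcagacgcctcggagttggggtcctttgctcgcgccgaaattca
Birc5 (chr11:117849087-117849266, plus strand): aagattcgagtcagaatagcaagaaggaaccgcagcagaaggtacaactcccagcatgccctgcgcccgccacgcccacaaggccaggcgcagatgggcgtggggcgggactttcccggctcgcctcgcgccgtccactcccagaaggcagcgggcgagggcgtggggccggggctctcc
In Kif4, Ttk and Kif23 the CHR followed the CCAAT box and lay close to the transcription start, whereas in Smc2 both matches lay near the far end of the stretch.

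Before the results, the arrays and labels were checked. The 2 arrays of a group correlated at 0.994 to 0.999 over all genes. Of 10 fibroblast markers, 9 lay above the array median on all 18 arrays (Thy1 did not), while all 4 blood cell markers and all 4 pluripotency markers lay below it. Of 5 epithelial markers 4 lay below it on every array, and of 4 endothelial markers 3 did. Krt8 and Tek, the remaining markers of these lists, lay neither above it nor below it on all 18. The Ezh2 probe set did not show the deletion: its log2 level was 9.37 and 9.43 with vehicle, 9.73 and 9.81 at day 32, 10.36 and 10.56 in the control and 10.46 and 10.48 in the Ezh2 null arrays. The deletion is therefore taken from the labels and the study. Its methods place the deleted region in the SET domain, and it followed Ezh2 protein by Western blot. The retroviral genes were seen, Ezh1 at 11.68 and 11.85 in the Ezh1 pre-rescue arrays against 9.50 and 9.82 in the control, and Ezh2 at 11.84 to 12.55 in the Ezh2 pre-rescue and post-rescue arrays. All 40 mitosis genes lay above the array median on every array. The 2 experiments were on different scales (array medians of 4.98 to 5.08 and of 6.16 to 6.27), so levels are compared only within an experiment.

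In the time course, the mitosis genes were lower at day 5 than with vehicle and higher at days 18 and 32. The labels name a single vehicle group and no vehicle arrays at each of these days. Time in culture and harvest therefore cannot be told apart from the tamoxifen treatment. The mean log2 level over the 40 genes stood at 8.84 and 8.94 with vehicle. It had dropped to 8.52 and 8.50 by day 5, then reached 9.67 and 9.71 by day 18 and ended at 9.83 and 9.77 on day 32. The 2 arrays of a time point differed by less than 0.1, and the ranges of the 4 time points did not overlap. Day 5 held the lowest mean for 38 of the 40 genes, and day 32 the highest for 37. No such count was made over all genes, so no share stands beside it.

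**Figure D1:**
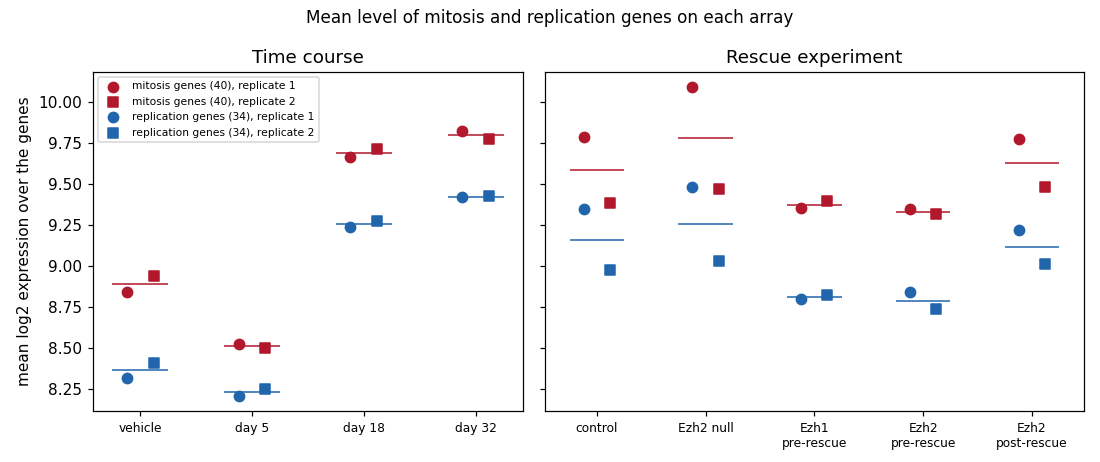
Mean log2 expression (y axis) of the 40 mitosis genes (red) and 34 DNA replication genes (blue) on each array, by group (x axis), for the time course (left) and the rescue experiment (right). Circles are replicate 1, squares replicate 2 and lines the mean of both; the time course replicates lie close together, whereas replicate 1 of the control, Ezh2 null and Ezh2 post-rescue groups lies above replicate 2.

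At day 5, 25 of the 40 genes fell and 0 rose against vehicle (limma, adjusted p under 0.05), where 5.72% of all genes tested were lower and 11% higher. At an unadjusted p under 0.05, 32 were lower and 1, Smc4, was higher. Counts at this threshold, at 2-fold and within replicates are given here and below without a share of all genes. The median change was −0.41 on the log2 scale, against −0.01 over all genes, and single genes ranged from −0.77 to 0.20. No member reached a 2-fold change. Centring each array on its median lowered all changes, giving −0.56 for these genes and −0.15 for all genes.

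The fall at day 5 is given by role, and differences between roles were not tested. The cyclins and their kinase fell in full (3 of 3). Cdk1, the kinase that drives entry into mitosis, measured 9.90 and 10.00 with vehicle and 9.35 and 9.41 at day 5, a change of −0.56 ± 0.08 (SE, adjusted p = 0.00142). Its partner Ccnb2 measured 10.70 and 10.79, then 10.04 and 10.17, a change of −0.64 ± 0.08 (adjusted p = 0.000814). For both genes the day 5 arrays lay wholly below the vehicle arrays.

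Of the 5 genes of the spindle checkpoint, 4 fell. Bub1b encodes BubR1, which holds the anaphase promoting complex in check, and its level went from 9.46 and 9.38 with vehicle to 8.73 and 8.61 at day 5, a change of −0.75 ± 0.08 (adjusted p = 0.000288). Mad2l1, another inhibitor of that complex, went from 9.55 and 9.58 to 8.91 and 8.93, a change of −0.65 ± 0.08 (adjusted p = 5e-04). Cdc20, the activator they restrain, changed by −0.56 ± 0.09 (adjusted p = 0.00276). Ttk, the kinase upstream of the checkpoint, differed by −0.29 and did not pass (adjusted p = 0.077).

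Kif2c, a kinesin that depolymerises microtubules at the kinetochore, fell most of all 40 genes. It measured 8.45 and 8.58 with vehicle and 7.70 and 7.79 at day 5, a 1.71-fold fall (−0.77 ± 0.09, adjusted p = 0.00048). Among the other spindle motors and microtubule proteins, Kif4, Hmmr and Tpx2 fell and Kif11, the motor that pushes the spindle poles apart, did not pass (−0.23, adjusted p = 0.0623). In the chromosomal passenger complex, which corrects wrong attachments, Birc5 (survivin) went from 7.72 and 7.68 to 7.07 and 7.04, a change of −0.64 ± 0.07 (adjusted p = 0.000368). Its catalytic subunit Aurkb (−0.51) and its scaffold Incenp (−0.33) fell as well, and Cdca8 (borealin) differed by −0.20 without passing (adjusted p = 0.0939).

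Among the mitotic kinases, Pbk, Plk1 and Melk fell (−0.67, −0.61 and −0.53), whereas Aurka and Nek2, both of the centrosome, did not pass (−0.28 and −0.22, adjusted p of 0.0623 and 0.163). Of 7 centromere and kinetochore genes 3 fell: Cenpa, the histone variant of centromeres, by 0.62, Cenpf by 0.54 and Nuf2 by 0.40. The partners of Nuf2 in the Ndc80 complex, which grips the microtubule, differed by −0.19 (Ndc80), −0.09 (Spc24) and −0.24 (Spc25), and none of these passed. The difference between Nuf2 and its partners was itself not tested. In cytokinesis, Kif23, Prc1 and Anln fell (−0.57, −0.50 and −0.42), while Cep55 (−0.14) and Ect2 (0.10), the activator of RhoA at the cleavage furrow, did not pass.

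Condensin and chromosome structure genes had the smallest median change at day 5 of the 8 roles (−0.09). Ncaph fell by 0.38 and Mki67 (Ki-67) by 0.28, and the remaining 4 did not pass. Smc4, the ATPase of condensin, measured 9.86 and 9.92 with vehicle and 10.19 and 10.00 at day 5, so both day 5 arrays lay above both vehicle arrays, but the difference of 0.20 ± 0.08 did not pass (adjusted p = 0.138). Its partner Smc2 (−0.07) and Top2a (−0.09), the topoisomerase that untangles sister chromatids, lay near 0.

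By day 18 all 40 genes had risen against vehicle, where 15.2% of all genes were higher and 10.5% lower. The median was 0.77, and 6 genes had risen at least 2-fold. The median over all genes was −0.02. At day 32 all 40 had again risen, with a median of 0.92 and 12 genes at least 2-fold up, where 18.4% of all genes were higher and 14.2% lower. The lowest rise at day 32 was that of Smc4 (0.41 ± 0.08, adjusted p = 0.0041), followed by Ccnb2 (0.47 ± 0.08, adjusted p = 0.00162).

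**Figure D2:**
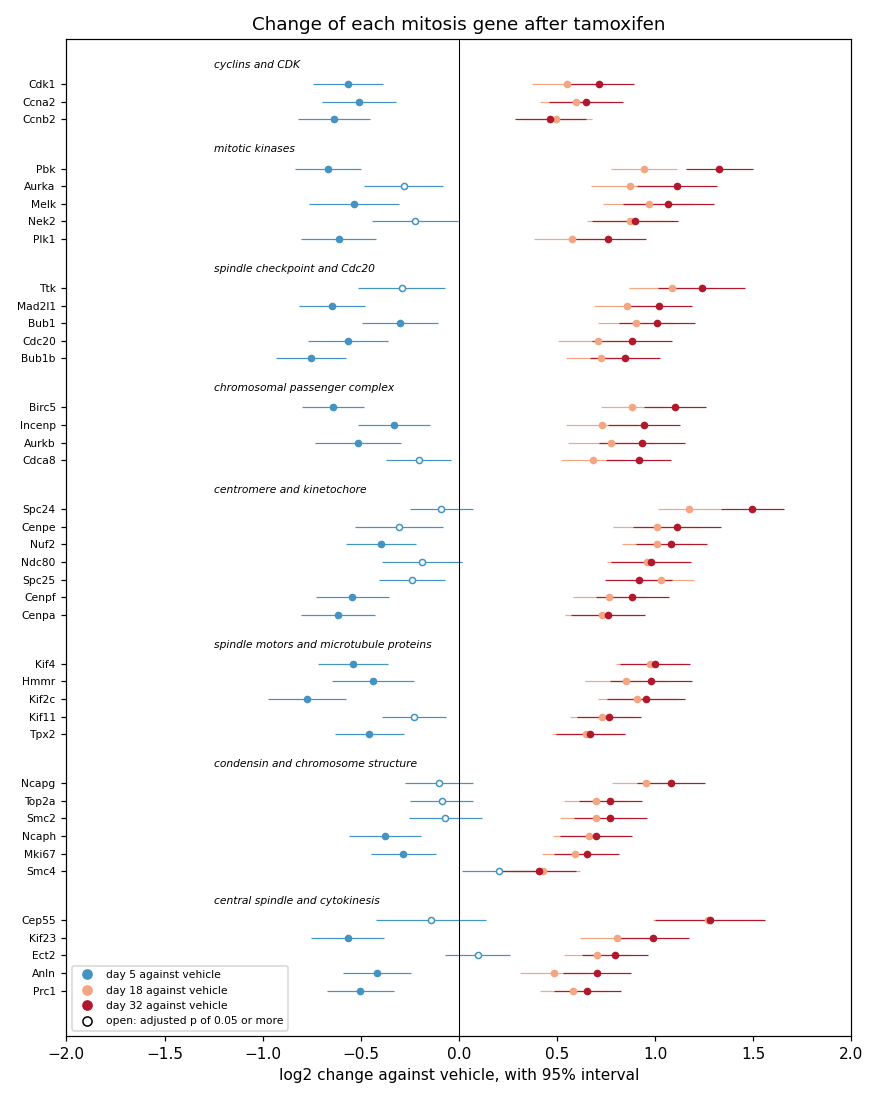
Log2 change against vehicle (x axis) of each of the 40 genes (y axis, grouped by role) at day 5 (blue), day 18 (orange) and day 32 (red), with 95% intervals; open circles did not pass an adjusted p of 0.05. The day 5 points lie left of 0 for all but Smc4 and Ect2, and all points of days 18 and 32 lie right of 0.

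Spc24, a subunit of the Ndc80 complex, rose most at day 32. It measured 6.26 and 6.31 with vehicle, 6.17 and 6.23 at day 5, 7.46 on both arrays at day 18, and finally 7.82 and 7.75 at day 32, a 2.82-fold rise over vehicle (1.50 ± 0.07, adjusted p = 7.02e-07). Pbk, a mitotic kinase, measured 7.65 and 7.54 with vehicle, 6.92 and 6.93 at day 5, 8.51 and 8.56 by day 18, and lastly 8.97 and 8.87 by day 32, a 2.51-fold rise over vehicle (1.33 ± 0.08, adjusted p = 1.95e-06). At day 5 Pbk had fallen (−0.67), whereas Spc24 had not passed (−0.09).

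Cep55, which recruits the abscission machinery to the midbody, was the gene that rose most at day 18. It measured 7.20 and 7.60 with vehicle, 7.25 and 7.26 at day 5, 8.57 and 8.76 by day 18, then 8.64 and 8.72 by day 32, a change of 1.27 ± 0.12 at day 18. The 2 vehicle arrays of Cep55 differed by 0.40, the widest gap of any mitosis gene in the time course. Ttk measured 7.49 and 7.73 with vehicle and 8.91 and 8.77 at day 32, a change of 1.24 ± 0.10 (adjusted p = 1.37e-05). The other genes at least 2-fold up at day 32 were Aurka, Cenpe, Birc5, Nuf2, Ncapg, Melk, Mad2l1 and Bub1, with changes of 1.01 to 1.11.

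By role, the median rise at day 32 was lowest in the cyclins and Cdk1 (0.65) and in condensin and chromosome structure (0.73). It was highest in the mitotic kinases (1.07) and the checkpoint (1.01). The passenger complex (0.94), the kinetochore (0.98), the spindle proteins (0.95) and the cytokinesis genes (0.80) lay between. The roles hold 3 to 7 genes each, and the differences between them were not tested.

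The step from day 5 to day 18 had the largest median change of the 12 comparisons. Of the 40, 39 rose and 0 fell, where 15.6% of all genes were higher and 16.1% lower, and 32 rose at least 2-fold. The median was 1.20, and every day 18 array lay above every day 5 array for all 40 genes, against 30.1% of all genes. Kif2c went from 7.70 and 7.79 at day 5 to 9.33 and 9.52 at day 18, a 3.21-fold rise (1.68 ± 0.09, adjusted p = 1.27e-06). Birc5 rose 2.87-fold (1.52 ± 0.07), Kif4, a motor that binds chromosomes, 2.86-fold (1.52 ± 0.08), and Mad2l1 2.83-fold (1.50 ± 0.08). The gene that did not pass was Smc4, at 10.35 and 10.29 on day 18 (0.22 ± 0.08, adjusted p = 0.0692). The genes just above it were Ect2 (0.61), Smc2 (0.77) and Top2a (0.79).

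Between day 18 and day 32 little changed. Pbk (0.38 ± 0.08, adjusted p = 0.0241) and Spc24 (0.32 ± 0.07, adjusted p = 0.0402) rose further, and 0 genes fell, where 1.4% of all genes were higher and 2.75% lower. At an unadjusted p under 0.05, 7 genes were higher and 0 lower. Both calls were lost when any 1 of the 4 arrays was left out. The median change was 0.10, and the 95% interval held 0 for 33 of the 40 genes.

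**Figure D3:**
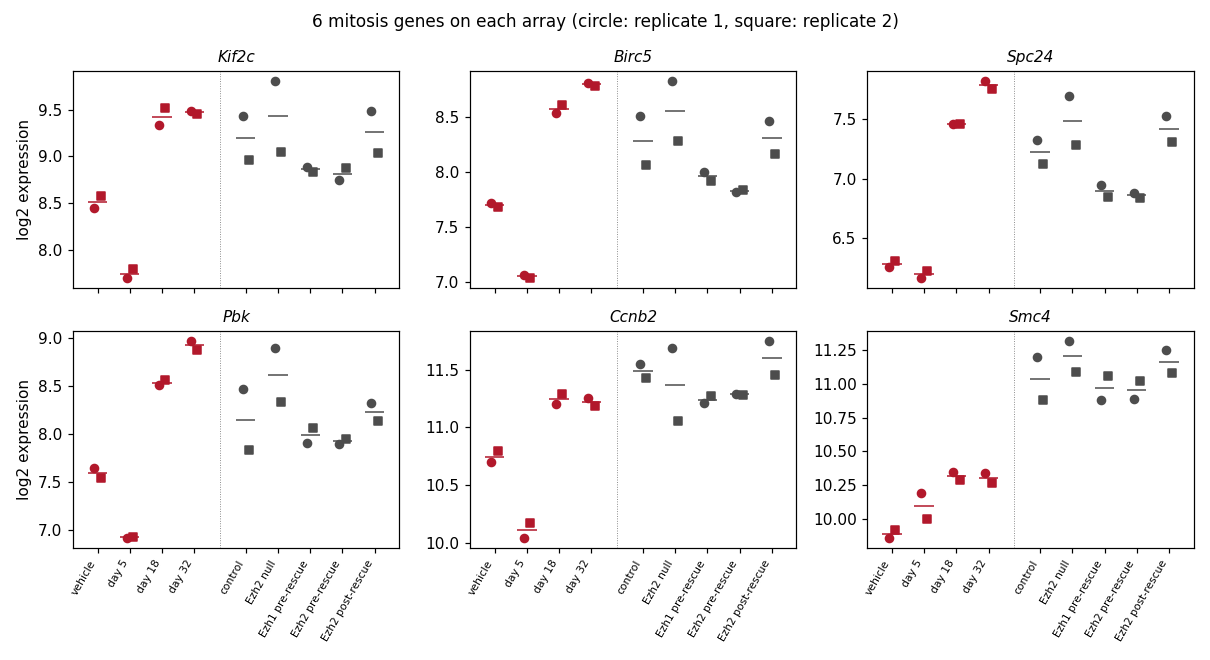
Log2 expression (y axis) of Kif2c, Birc5, Spc24, Pbk, Ccnb2 and Smc4 on each array of the 9 groups (x axis; time course in red, rescue experiment in grey, separated by a dotted line because their scales differ), with circles for replicate 1, squares for replicate 2 and lines for the mean. Kif2c, Birc5, Pbk and Ccnb2 dip at day 5, Spc24 hardly does and Smc4 does not; in the rescue experiment replicate 1 lies above replicate 2 in the control and the Ezh2 null cells for all 6.

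Genes with and without the pair of promoter motifs all rose between day 5 and day 18. The median was 1.17 for the 22 genes that hold both a CHR and a CCAAT box. It was 1.41 for the 11 that lack the pair, several of which hold a CHR or a CCAAT box alone. Among the 1120 other genes that hold both, the median change was 0.01, and 21.9% were higher and 11.3% lower, against 15.1% and 16.6% of the 13596 genes without both. These shares were not tested.

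The wider mitotic machinery was measured by 92 further genes. At day 5, 24 of them fell and 5 rose, with a median of −0.08, and at days 18 and 32, 69 and 71 rose while 0 and 1 fell (medians 0.69 and 0.76). Of all genes, 5.72% fell and 11% rose at day 5. At days 18 and 32, 15.2% and 18.4% of all genes rose, and 10.5% and 14.2% fell. These shares also serve for the lists that follow and for the replication genes. The counts differed by list, and the differences between lists were not tested. Of 18 other spindle and cytokinesis genes, 12 fell at day 5 and 17 rose at each later time; Kif18a, a motor that restrains chromosome oscillation, rose by 1.39 ± 0.12 at day 32 and Kif15 by 1.14 ± 0.08. Of 22 other kinetochore genes, 7 fell and 1 rose at day 5, and 21 rose later, led by Cenph (1.48 ± 0.16 at day 32) and Kntc1 (1.14 ± 0.07). Mis12 was the kinetochore gene higher at day 5 (0.60 ± 0.09, adjusted p = 0.00153), and it rose at day 32 as well (1.01 ± 0.09).

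All 4 other condensin genes rose at both later times, with Ncapg2 at 1.15 ± 0.09 and Ncapd2 at 0.98 ± 0.07 at day 32. At day 5 Ncapd2 fell by 0.55 (adjusted p = 0.000917). Of 9 genes of the mitotic entry switch 2 fell at day 5 and 7 rose later. Haspin, the kinase that marks centromeric histone H3, rose by 1.31 ± 0.11 at day 32 and Cdc25c, the phosphatase that activates Cdk1, by 1.22 ± 0.09.

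Of 14 genes of the anaphase promoting complex and its partners, 1 fell at day 5, near the share of all genes. At days 18 and 32, 4 and 6 rose. The genes that rose most were Fbxo5 (1.75 ± 0.17 at day 32), which encodes the inhibitor Emi1, and the ubiquitin-conjugating enzyme Ube2s (0.73 ± 0.09 at day 18). Of 13 genes of cohesin and its regulators, 1 rose and 1 fell at day 5, near the shares of all genes. Later 7 and 8 rose, led by separase, Espl1 (1.37 ± 0.09), and shugoshin, Sgo1 (1.01 ± 0.08). Pttg1, which encodes the securin that blocks separase, rose at day 5 (0.50 ± 0.09, adjusted p = 0.00573) and differed from vehicle by −0.10 and −0.09 at days 18 and 32, where it did not pass.

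Of 12 regulators of mitotic transcription, 3 rose at day 5, and 9 and 8 rose at days 18 and 32, where 0 and 1 fell. Mybl2, which encodes the B-MYB that turns late cell cycle promoters on, rose by 1.40 ± 0.07 at day 32 and did not pass at day 5 (0.10, adjusted p = 0.414). The pocket protein genes Rbl1 and Rbl2 (p107 and p130 of DREAM) moved apart. Rbl1 rose by 0.94 ± 0.08 at day 32, whereas Rbl2 rose at day 5 (0.37 ± 0.09, adjusted p = 0.0189) and fell at day 32 (−0.56 ± 0.09, adjusted p = 0.000848). Lin52 and Lin54, subunits that DREAM shares with the activating complex, rose at day 5 as well (0.33 and 0.36). Of the 34 DNA replication genes 8 fell at day 5 (median −0.09) and all 34 rose at days 18 and 32 (medians 0.88 and 1.07). Cdkn1a (p21), an inhibitor of the cell cycle, was higher at day 5 (1.01 ± 0.08, adjusted p = 3.97e-05), day 18 (1.03) and day 32 (adjusted p = 5.64e-06), both where the mitosis genes were low and where they were high. Cdkn2a, another inhibitor gene, fell at day 5 (−0.44 ± 0.09, adjusted p = 0.00868) and did not pass at day 18 (−0.16) or day 32 (−0.23).

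Other markers moved with the time points too. The summed log2 level of the 10 fibroblast markers was 90.61 to 90.92 with vehicle, 91.31 to 91.66 at day 5 and 88.13 to 88.64 at day 32. The sum hides opposite moves: at day 5, 4 of the 10 rose and 1 fell, with changes from −1.57 to 0.79. At day 32, 0 rose and 4 fell (−0.60 to 0.09), where 18.4% of all genes were higher and 14.2% lower. The summed level of the 4 endothelial markers was 14.84 to 15.31 with vehicle and 17.25 to 17.38 at day 5. Pecam1, Cdh5 and Kdr lay below the array median on every array, and Tek did not. Of the 4 endothelial markers, 2 rose at day 5 and 0 fell, where 11% of all genes were higher and 5.72% lower. Their single changes ranged from −0.02 to 1.53, with a median of 0.37. The part of these markers in the changes of the mitosis genes was not tested.

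In the rescue experiment the replicates themselves differed. The mean log2 level over the 40 genes was 9.79 and 9.39 on the 2 control arrays and 10.09 and 9.47 on the 2 Ezh2 null arrays. It was 9.78 and 9.48 after Ezh2 post-rescue, 9.35 and 9.40 after Ezh1 pre-rescue and 9.35 and 9.32 after Ezh2 pre-rescue. All 40 genes were higher on replicate 1 than on replicate 2 in the control (median 0.42), in the Ezh2 null cells (0.64) and after Ezh2 post-rescue (0.30), where the median over all genes was at most 0.02. Only 2.13%, 1.57% and 3.15% of all genes had a gap above that median in the 3 groups. Both pre-rescues lacked such a gap (−0.07 and 0.03). The replication genes were split likewise, at 9.35 and 8.97 in the control and 9.48 and 9.03 in the Ezh2 null cells. The methods name a batch of first and second replicates, so each comparison is given with the replicate as a block and within each replicate.

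In Ezh2 null cells the 40 genes did not differ detectably from the control, where few genes of any kind passed. Of the 40 genes 0 rose and 0 fell (limma), where 1.2% of all genes were higher and 0.755% lower. These counts are near the shares of all genes. At an unadjusted p under 0.05, 5 were higher (Cep55, Nek2, Spc24, Kif23, Pbk) and 0 lower. The median difference was 0.19. It was 0.31 within replicate 1, with all 40 higher, and 0.08 within replicate 2, with 30 higher and 10 lower. Without Ezh2 null replicate 1 it was −0.041. For 0 of the 40 genes both Ezh2 null arrays lay above both control arrays, or below them, where 16.5% of all genes lay above and 26.7% below. Replicate 1 lay above replicate 2 for all 40 in both groups (medians 0.42 and 0.64), which made such a separation hard to reach. This count therefore cannot be read against the shares of all genes. The 95% intervals, with half-widths of 0.24 to 0.53, reached a 2-fold rise for 0 genes and held 0 for 35. Cep55 came closest to passing, at 8.69 and 8.14 against 8.29 and 7.76 (0.39 ± 0.12, adjusted p = 0.157).

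The rise at day 32 and the difference in the Ezh2 null cells were compared directly, in 1 fit over all arrays. For 19 of the 40 genes the Ezh2 null effect was below the day 32 effect (adjusted p under 0.05), and for 0 it was above, where 5.64% of all genes were below. The median difference of the effects was −0.70. It was largest for Spc24 (−1.23 ± 0.12, adjusted p = 0.000102), Melk (−1.02 ± 0.22, adjusted p = 0.0123) and Ttk (−0.99 ± 0.20, adjusted p = 0.00886), and smallest for Smc4 (−0.25 ± 0.16, adjusted p = 0.455). The count was 9 when each experiment was divided by its own SD, 10 with median centring and 7 without the replicate block. Leaving out 1 array gave 8 to 39, the highest without Ezh2 null replicate 1. The experiments differ in scale, control and culture history, and these cannot be told apart from the difference.

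In the comparison of the pre-rescue cells with the Ezh2 null cells, few genes passed. After Ezh2 pre-rescue 5 genes fell (Birc5, Cdca8, Cep55, Spc24, Nek2) and 0 rose, where 4% of all genes were lower and 3.15% higher. At an unadjusted p under 0.05, 23 were lower and 0 higher. Birc5 measured 7.82 and 7.84 after Ezh2 pre-rescue against 8.83 and 8.28 in the Ezh2 null cells, a change of −0.72 ± 0.14 (adjusted p = 0.0289). Spc24 measured 6.88 and 6.84 against 7.69 and 7.28, a change of −0.62 ± 0.10 (adjusted p = 0.0187). For both genes the pre-rescue arrays lay wholly below the Ezh2 null arrays, but the 2 Ezh2 null arrays lay 0.41 to 0.55 apart.

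The median over the 40 genes was −0.47 after Ezh2 pre-rescue, and within replicates it was −0.76 (40 of 40 lower) and −0.16 (30 lower, 10 higher). After Ezh1 pre-rescue, Cep55 (−0.59 ± 0.12, adjusted p = 0.0493) and Spc24 (−0.58 ± 0.10, adjusted p = 0.0389) fell and 0 genes rose, where 1.44% of all genes were lower and 0.861% higher. At an unadjusted p under 0.05, 20 were lower and 0 higher. The median was −0.41, with −0.77 within replicate 1 (40 of 40 lower) and −0.06 within replicate 2 (25 lower, 15 higher). Without the replicate block 1 gene fell after Ezh2 pre-rescue and 0 after Ezh1 pre-rescue. The calls did not hold when arrays were left out. Without any 1 of the 4 arrays of a comparison, some or all of its calls were lost.

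**Figure D4:**
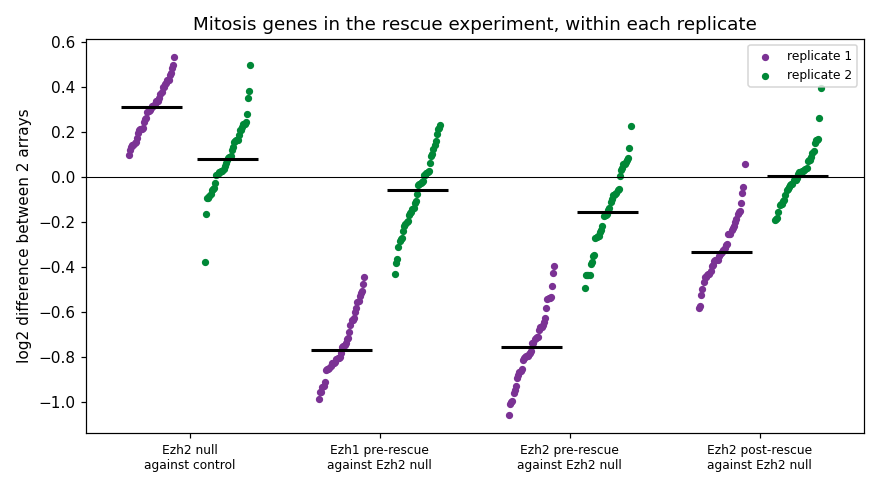
Log2 difference (y axis) between 2 arrays of the same replicate number for each of the 40 genes, for 4 comparisons of the rescue experiment (x axis), with replicate 1 in purple, replicate 2 in green, genes in ascending order and bars at the medians. The differences of replicate 1 lie far from 0 in each comparison (medians 0.31, −0.77, −0.76 and −0.33), and those of replicate 2 lie around it (0.08, −0.06, −0.16 and 0.00).

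Between Ezh2 post-rescue and Ezh2 null cells few genes of any kind passed, with 0.191% of all genes higher and 0.409% lower. Of the mitosis genes 0 rose and 0 fell, near these shares. At an unadjusted p under 0.05, 2 were lower and 0 higher. The median was −0.15, with −0.33 and 0.00 within replicates. Against the control, 0 genes passed in either direction after any of the rescues. The shares of all genes higher and lower were 0.0106% and 0% for Ezh1 pre-rescue, 0% and 0% for Ezh2 pre-rescue and 0.51% and 0.197% for Ezh2 post-rescue, so few or no genes of any kind passed. At an unadjusted p under 0.05, 4 mitosis genes were lower after Ezh1 pre-rescue, 9 lower after Ezh2 pre-rescue and 1 higher after Ezh2 post-rescue, with 0 in the opposite direction.

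The medians against the control were −0.21 for Ezh1 pre-rescue (−0.43 and 0.03 within replicates 1 and 2), −0.26 for Ezh2 pre-rescue (−0.42 and −0.08) and 0.03 for Ezh2 post-rescue (−0.03 and 0.08). All 40 genes were below the control within replicate 1 of both pre-rescues, and 16 and 27 were within replicate 2. Cdkn1a was higher in the Ezh2 null cells than in the control (1.16 ± 0.18, adjusted p = 0.0213) and lower than in the Ezh2 null cells after Ezh1 pre-rescue (−1.30, adjusted p = 0.0181), Ezh2 pre-rescue (−1.46, adjusted p = 0.00799) and Ezh2 post-rescue (−1.71, adjusted p = 0.0123). The fibroblast markers summed to 95.37 to 96.76 in the Ezh2 null cells, 96.32 to 99.53 in the control and 99.95 to 102 after the 3 rescues. Single markers differed by −0.64 to 0.74 between Ezh2 null cells and the control, so the sum combines both directions. Their part in the differences between the groups was not tested.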

How the data were processed

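Total RNA was hybridised to Affymetrix Mouse Gene 1.1 ST arrays, 8 in the time course and 10 in the rescue experiment. The authors normalised the arrays with RMA in the oligo package and deposited log2 expression values for 28440 probe sets. Per the methods, the rescue values were also corrected for a batch of first and second replicates with limma; no label tells if that step is part of what was deposited. The SD of the mean difference between replicates over the 5 rescue groups was 0.0629, against 0.0881 if these differences were independent. In the platform annotation 21217 probe sets had 1 symbol, 1881 several and 5342 none; those with 1 symbol gave 18820 genes, and of several probe sets per gene the one with the highest mean over all arrays was used (5 mitosis genes). Levels of different probe sets were not compared.

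Each experiment was fitted over all genes with limma 3.58.1 in R 4.3.3 (lmFit, eBayes, two-sided, Benjamini-Hochberg), and a gene was said to rise or fall at an adjusted p under 0.05. The rescue fit held the replicate number as a block because of the stated batch. The time course fit did not: over its 6 pairs of groups, the differences between replicates correlated at −0.07 to 0.05. In the rescue experiment these correlations ran from −0.43 to 0.54, negative in 6 of 10 pairs. A correction for the replicate batch would itself lower such correlations. They therefore cannot tell if the numbers paired the samples. No label places the replicates in separate cultures, although the study describes them as biological, and p-values thus reflect the spread between arrays, which may be technical. RankProduct, named in the methods, was not run; its thresholds (adjusted p of 0.15 and 2-fold) were applied to the limma fit as an alternative. The fit was tested on simulated data. With 2 arrays a group, their number limits the precision.

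The 42 genes, the other lists and the tests were chosen with earlier results of these data known. Genes given array by array were drawn from the 2 of each role with the largest change against vehicle and those at least 2-fold changed; of the other mitosis lists, up to 2 a list and those that moved against their list were named. Promoter windows came from RefSeq. No column of the authors' own comparisons was used.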

Additional observations from a re-analysis of the deposited data

Results flagged for a closer look

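The difference between the 2 experiments stood out. For 19 of the 40 mitosis genes the effect in Ezh2 null cells against their control was below the effect at day 32 against vehicle, by a test of that difference, and for 0 it was above, where 5.64% of all genes were below. The count was 7 without the replicate block and 9 to 11 under the other scalings. The experiments had separate controls and scales, and the deletion in the rescue experiment has no stated day in the labels, so this is a difference between experiments as a whole and cannot be told apart from their conditions. Within replicates of the rescue experiment the median Ezh2 null effect was 0.31 and 0.08, and within those of the time course the median day 32 effect was 1.00 and 0.83.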

How the results depend on the processing

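The rises at days 18 and 32 held for all 40 genes with a replicate block, median centring, quantile normalization, the lowest 30% of genes left out, probe sets averaged, an intensity trend and each array left out. The fall at day 5 ran from 18 to 36 of 40 over the same alternatives. With the methods' thresholds, 0 fell at day 5, 6 rose at day 18 and 12 at day 32, 0 rose between days 18 and 32, and 0 fell in either comparison of a pre-rescue with Ezh2 null. With an intensity trend 1 gene rose at day 5.

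Between days 18 and 32, 1 gene rose with the replicate block, 1 with probe sets averaged, 4 with an intensity trend and 0 to 0 with each array left out. After Ezh1 pre-rescue against Ezh2 null, 0 fell without the replicate block, 0 with median centring, 0 with quantile normalization and 0 to 0 with each array left out. After Ezh2 pre-rescue 1 fell without the replicate block and 0 to 5 with each array left out. The effect of Ezh2 null against that of day 32 differed for 10 genes with median centring, 11 with quantile normalization, 9 with each experiment divided by its SD, 7 without the replicate block and 8 to 39 with each array left out (chosen after seeing the data). The block changed no other count of calls by over 1.5 times. The median of Ezh2 null against control ran from −0.041 to 0.42 with an array left out, and that of Ezh2 post-rescue against control from −0.082 to 0.12. Against Ezh2 null cells it ran from −0.39 to 0.072 for Ezh2 post-rescue (above 0 without Ezh2 null replicate 1), −0.70 to −0.19 for Ezh2 pre-rescue and −0.64 to −0.18 for Ezh1 pre-rescue, and against the control from −0.39 to −0.11 for Ezh2 pre-rescue and −0.40 to −0.022 for Ezh1 pre-rescue. Where an array is left out, its partner is assumed to vary like the other groups. The cause of these shifts was not tested. In all, 240 of 276 counts under an alternative stayed within 1.5 times the reported count. This total includes the many counts that were 0 in the main fit and stayed 0. It therefore says little about the counts above 0.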
